A study of Mus musculus with 4 samples.

Results

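Neural progenitor identity genes were examined in mouse N31 NPCs, with and without knockdown of the transcription factor Srf, on a soft and on a stiff matrix. The 9 genes were chosen by name as classical markers of neural stem and progenitor cells (Pax6, Nes, Sox1, Sox3, Sox9, Msi1, Fabp7, Prom1 and Olig2), out of 21862 genes listed once in every library. In these cells the set did not move as a block. Nes and Prom1 were lower in the Srf-knockdown libraries, Pax6 and Msi1 were higher, Sox9 differed little, and Sox1, Sox3, Fabp7 and Olig2 were at or near 0.

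RNA sequencing gave 4 libraries, 1 for each condition: control NPCs on 0.5 kPa, control NPCs on 12 kPa, and NPCs expressing shSrf#1, a short hairpin RNA against Srf delivered by retrovirus, on 0.5 kPa and on 12 kPa. All 4 came from N31 cells, a single NPC line obtained by in vitro differentiation of iPSCs, which carries Dox-inducible Oct4, Klf4, c-Myc and Sox2, a CAG-driven rtTA and a blasticidin-resistance gene at the Oct4 locus. Every culture was kept without EGF and bFGF on matrices coated with type I collagen, and the vector carried by the control cells is not given in the sources used here. Because each condition had 1 library, no difference has a replicate check, no p-value was computed, and a difference between the shSrf and control cells cannot be told apart from one between the 2 cell populations as they were grown and sequenced.

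Neural stem and progenitor cells are recognized by transcription factors that set neural fate and by structural or surface proteins that mark their undifferentiated, often radial, shape. Sox1, Sox3 and their relative Sox2 are SoxB1 factors that hold cells in the neural progenitor state. Pax6 patterns dorsal forebrain progenitors, Olig2 marks ventral progenitors and the oligodendrocyte lineage, and Sox9 takes part in stem cell maintenance and the switch to gliogenesis. Nestin (Nes) is an intermediate filament of progenitors, Prom1 (CD133) is a membrane protein of apical protrusions, Fabp7 (BLBP) is a fatty acid binding protein of radial glia, and Msi1 is an RNA-binding protein. Srf binds a short element called the CArG box and drives many genes of the actin cytoskeleton.

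Because Srf was the gene targeted, the 250 bases before each annotated start of the members were searched for the CArG box, a 10-letter element that reads the same on both strands and overlaps no other motif searched. RefSeq promoters (GRCm38.p6) were matched for 6 of the 9 members, with 8 starts between them, and Sox3, Sox9 and Msi1 were not matched. None of the 8 windows held the box without a mismatch, against 1.47% of all 32851 promoters. Stretches of 60 bases are shown for each matched start of the members that differed between shSrf and control cells, beside 2 genes that Srf is known to drive. Of these, the window of Srf itself held 2 exact boxes and that of Acta2 none, with a closest match at 1 mismatch. Capitals mark the closest matches to the box that lie within the stretch shown, and each line reads 5′ to 3′ on the strand of the gene. The windows of Acta2, Nes and the upstream starts of Pax6 and Prom1 held further matches as close, outside the stretch.
Srf, chr17:46556200-46556259, minus strand: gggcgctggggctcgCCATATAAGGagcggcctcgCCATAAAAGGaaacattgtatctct
Acta2, chr19:34255413-34255472, minus strand: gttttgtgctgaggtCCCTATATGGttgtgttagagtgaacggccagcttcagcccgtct
Prom1, downstream start, chr5:44094905-44094964, minus strand: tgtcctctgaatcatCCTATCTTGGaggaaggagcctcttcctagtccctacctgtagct
Prom1, upstream start, chr5:44101894-44101953, minus strand: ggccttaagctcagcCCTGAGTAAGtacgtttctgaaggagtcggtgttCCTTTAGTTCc
Nes, chr3:87970865-87970924, plus strand: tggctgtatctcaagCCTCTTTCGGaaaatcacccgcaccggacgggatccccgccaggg
Pax6, upstream start, chr2:105668789-105668848, plus strand: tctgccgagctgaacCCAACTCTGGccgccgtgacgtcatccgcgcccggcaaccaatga
Pax6, downstream start, chr2:105682215-105682274, plus strand: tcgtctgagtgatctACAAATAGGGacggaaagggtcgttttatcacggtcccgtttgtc
The Prom1 stretch at the downstream start came within 1 mismatch of the box, which 18.6% of all promoters did. Those of Nes and of both Pax6 starts came within 2 mismatches, as did 75.2% of promoters, and that of the upstream Prom1 start within 3, as did 98.0%. These are matches of letters in a window and say nothing of binding.

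Levels are given as the deposited FPKM, that is, reads per gene scaled to transcript length and to the mapped reads of the library, so that genes can be set side by side. FPKM carries no depth. From the FPKM of single reads in weakly expressed genes, depth was estimated at 24100000 and 29100000 reads in the control libraries and at 45000000 and 62300000 in the shSrf libraries. On a transcript of 2000 nucleotides, 3 reads then correspond to an FPKM between 0.0268 and 0.0691. Intervals below are 95% counting intervals from reads estimated in this way. They cover neither culture nor library preparation. Srf itself stood at 34.4 and 35.6 FPKM in the control libraries on 0.5 and 12 kPa, and at 16.2 and 17.4 FPKM in the shSrf libraries.

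**Figure D1:**
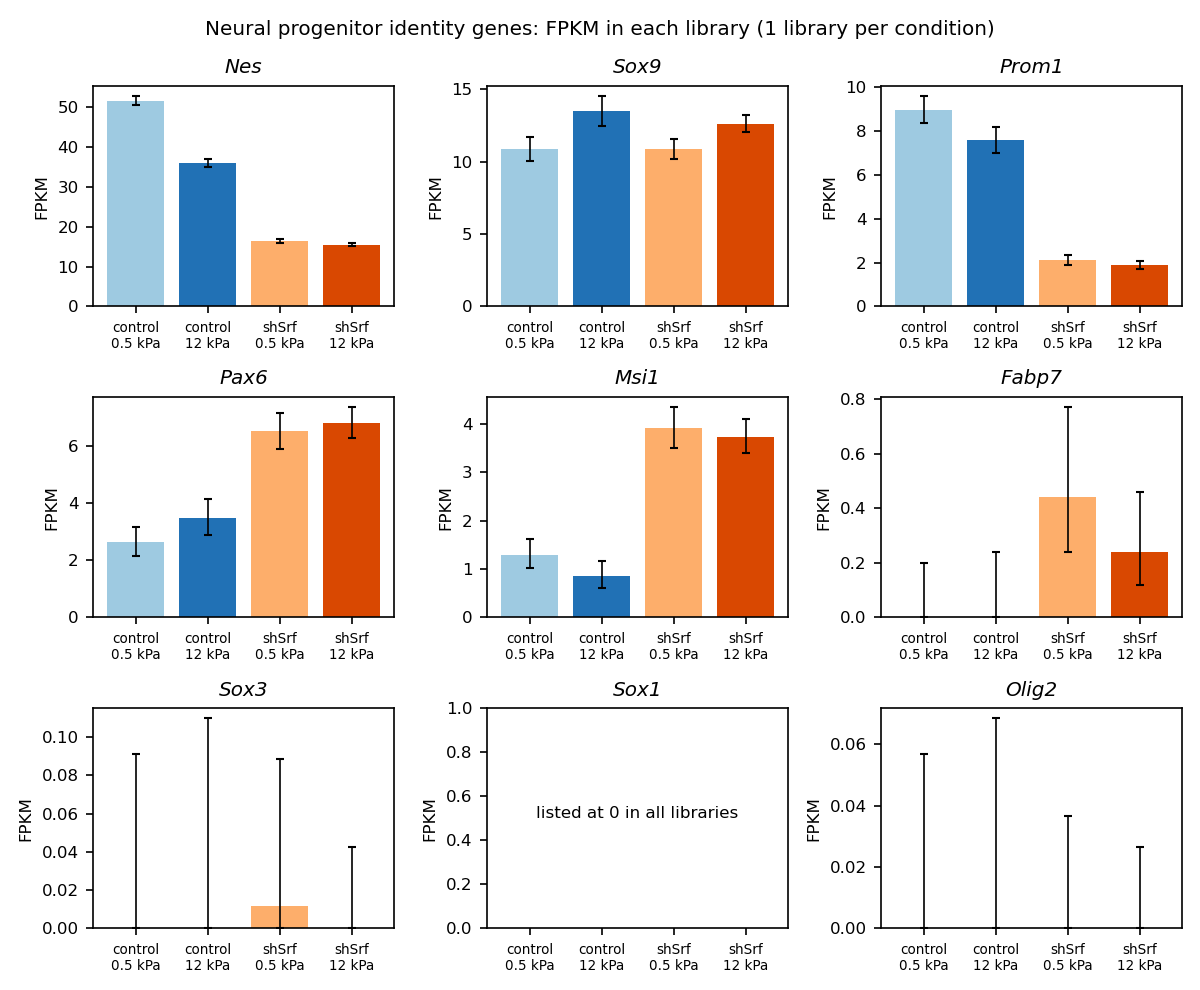
FPKM of each of the 9 genes (vertical axes, each starting at 0 with its own scale) in the 4 libraries. Bars are single libraries and error lines the 95% counting interval. Nes and Prom1 stand higher in both control libraries, Pax6 and Msi1 in both shSrf libraries, and the last 4 panels are at or near 0.

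Nes lies on chromosome 3 of mm10 from 87971093 to 87980451 and was the most abundant of the 9 genes in all 4 libraries. Its FPKM was 51.6 in control NPCs on 0.5 kPa and 36.1 on 12 kPa, and 16.4 and 15.5 in shSrf NPCs on 0.5 and 12 kPa. Both control libraries were above both shSrf libraries, and the gap between the 2 stiffnesses was wide in control NPCs and narrow in shSrf NPCs. The counting interval was 50.6 to 52.7 in control NPCs on 0.5 kPa and 35.1 to 37.1 on 12 kPa. In shSrf NPCs the intervals were 15.9 to 16.9 and 15.1 to 15.9. Among all listed genes Nes stood at percentiles 88.4 and 83.7 in control NPCs and 71.6 and 70.5 in shSrf NPCs. A difference in the same direction at both stiffnesses is common here. Of the 10489 genes above FPKM 2 in every library, 30.3% were higher and 28.8% lower past 1.1-fold in both shSrf over control ratios. The share of genes whose control and shSrf values do not overlap was not computed.

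Prom1, on chromosome 5 from 43993621 to 44102047, gave the largest fold difference below 1 between shSrf and control libraries among the members. Its FPKM was 8.96 and 7.58 in control NPCs on 0.5 and 12 kPa, and 2.1 and 1.88 in shSrf NPCs. Both shSrf values were below both control values, and the gene passed the minimum FPKM of 2 in 3 libraries only. On the longest transcript, about 924 and 648 reads lay behind the control values, and 336 and 416 behind the shSrf values.

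Pax6, on chromosome 2 from 105668896 to 105698410, was measured at 2.62 FPKM in control NPCs on 0.5 kPa, 3.46 on 12 kPa, and 6.49 and 6.78 in shSrf NPCs. Both shSrf libraries were above both control libraries. The counting intervals of the 2 control libraries met (2.16 to 3.16 and 2.86 to 4.12), as did those of the 2 shSrf libraries (5.88 to 7.13 and 6.25 to 7.33). These intervals rest on the median length of 25 annotated transcripts, which gives 111 reads in control NPCs on 0.5 kPa, where the longest transcript gives 626. The start of Pax6 lies within the span of Pax6os1, a long noncoding RNA gene that runs from 105536080 to 105670330. Whether the counting used strand is not given in the sources used here, so reads from this shared stretch cannot be told apart.

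Msi1, on chromosome 5 from 115359059 to 115455698, was low in control NPCs, with an FPKM of 1.29 on 0.5 kPa and 0.860 on 12 kPa, from about 111 and 60.9 reads on the longest transcript. In shSrf NPCs its FPKM was 3.91 on 0.5 kPa and 3.74 on 12 kPa. The shSrf intervals (3.51 to 4.34 and 3.40 to 4.09) lay above those of control NPCs (1.02 to 1.62 and 0.612 to 1.16). These intervals rest on the median transcript length, which gives 75.1 and 41.4 reads in control NPCs on 0.5 and 12 kPa.

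Sox9, on chromosome 11 from 112782210 to 112787757, differed more between the matrices than between control and shSrf cells. Its FPKM was 10.9 in both control and shSrf NPCs on 0.5 kPa, and 13.5 in control and 12.6 in shSrf NPCs on 12 kPa. The 2 libraries on 12 kPa were above the 2 on 0.5 kPa, and the share of all genes with this order was not computed. Past 1.1-fold, 17.9% of genes above FPKM 2 in every library were higher on 12 kPa in control NPCs. In shSrf NPCs that share was 17.6%. The intervals were 10.1 to 11.7 and 12.5 to 14.5 in control NPCs, and 10.2 to 11.5 and 12.0 to 13.2 in shSrf NPCs.

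The remaining members were barely detected or listed at 0. Fabp7, on chromosome 10 from 57784923 to 57788450, was listed at 0 in both control libraries, where 3 reads would have given an FPKM of 0.161 on 0.5 kPa and 0.194 on 12 kPa. Its FPKM was 0.442 in shSrf NPCs on 0.5 kPa (interval 0.239 to 0.769) and 0.239 on 12 kPa (0.120 to 0.460). On its 804-nucleotide transcript these come to about 12.0 and 9.01 reads. The control libraries are shallower, and a level below the limits given would have left fewer than 3 reads there. The upper bound of the control interval was 0.197 on 0.5 kPa, below the shSrf interval, and 0.238 on 12 kPa, within it. Sox3, on chromosome X from 60891366 to 60893430, had an FPKM of 0.0119 in shSrf NPCs on 0.5 kPa, about 1 read, and 0 in the other 3 libraries.

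Sox1 and Olig2 were listed at 0 in all 4 libraries. For Olig2, on chromosome 16 from 91225550 to 91228677, 3 reads would have given an FPKM between 0.0215 and 0.0556, so a level above that was not seen. No such limit can be given for Sox1, on chromosome 8 from 12395519 to 12399555, because the transcript set used for lengths holds no Sox1 transcript. Sox1 also lies within the span of the noncoding gene Sox1ot, which runs from 12385771 to 12436732 and was not among the genes listed.

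The order of the members by FPKM differed between the cell populations. In both control libraries it ran from Nes through Sox9, Prom1 and Pax6 to Msi1, and in both shSrf libraries from Nes through Sox9, Pax6, Msi1 and Prom1 to Fabp7. Neighbours in this order were apart by more than their counting intervals in each library. Ratios of FPKM within a library, for pairs picked after the values were seen, show the reordering without any scaling between libraries. The ratio of Nes to Pax6 was 19.7 and 10.4 in control NPCs on 0.5 and 12 kPa, and 2.53 and 2.29 in shSrf NPCs. That of Prom1 to Msi1 was 6.92 and 8.81 in control NPCs, and 0.538 and 0.504 in shSrf NPCs.

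The comparison of shSrf with control NPCs asks how these markers stand when Srf is reduced. At 0.5 kPa, Nes was 3.14-fold lower (log2 ratio -1.65, counting SE 0.027) and Prom1 4.26-fold lower (-2.09, SE 0.095) in shSrf NPCs. At 12 kPa, Nes was 2.32-fold lower (-1.22, SE 0.028) and Prom1 4.02-fold lower (-2.01, SE 0.093). In these bulk libraries, fewer cells that express a gene and less RNA of it per cell cannot be told apart.

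Pax6 was 2.47-fold higher in shSrf than in control NPCs at 0.5 kPa (log2 ratio 1.31, SE 0.15) and 1.96-fold higher at 12 kPa (0.97, SE 0.14). Msi1 was 3.02-fold higher at 0.5 kPa (1.59, SE 0.18) and 4.35-fold higher at 12 kPa (2.12, SE 0.23). The Sox9 log2 ratio was -0.00028 (95% counting interval -0.14 to 0.14) at 0.5 kPa and -0.09 (-0.22 to 0.03) at 12 kPa.

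**Figure D2:**
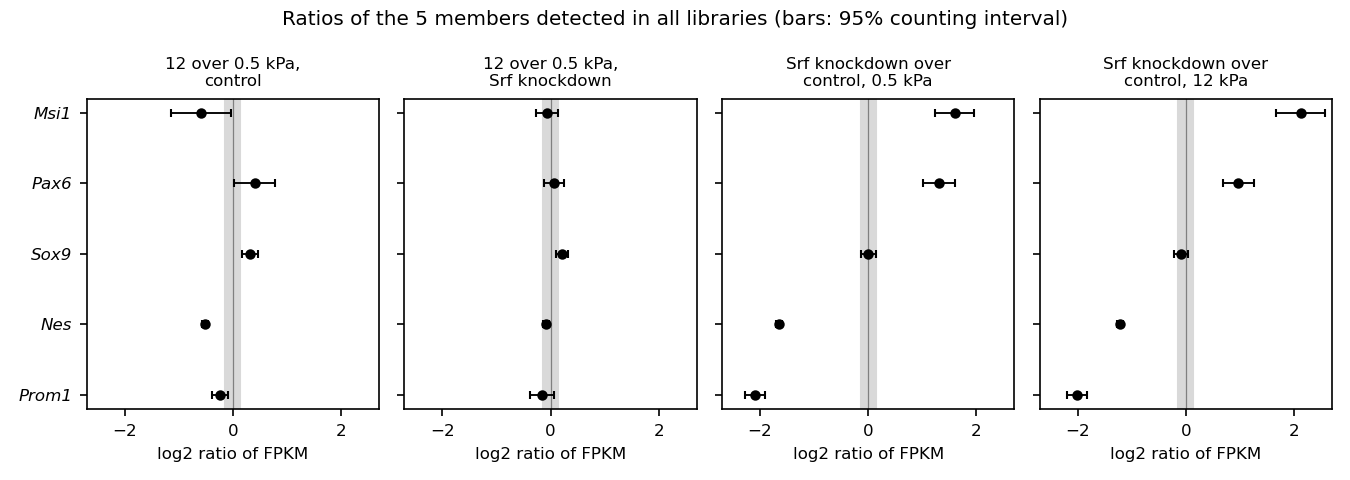
Log2 ratio of FPKM (horizontal axes) of the 5 members detected in all 4 libraries, for the 2 stiffness and the 2 knockdown comparisons. Points are ratios of single libraries, lines the 95% counting interval and the grey band 1.1-fold in either direction. The knockdown ratios of Nes and Prom1 lie below -1 and that of Msi1 above 1 at both stiffnesses.

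The study's methods use a minimum FPKM of 2 in every library, which 10489 genes passed, among them 3 of the 9 members (Pax6, Nes and Sox9). Past 1.1-fold, the threshold of the same methods, 1 of the 3 was higher and 1 lower in shSrf than in control NPCs at each stiffness. Among all genes above the minimum, 37.4% were higher and 35.7% lower at 0.5 kPa, and 37.6% and 35.9% at 12 kPa, so these counts are near the background. The sizes of 2 of the ratios were far out in that distribution. Nes stood at percentile 0.696 of all ratios at 0.5 kPa and 1.40 at 12 kPa, Pax6 at 98.9 and 97.1, and Sox9 at 49.0 and 39.9.

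Without a minimum, 5 members were detected in all libraries, of which Pax6 and Msi1 were higher and Nes and Prom1 lower past 1.1-fold at each stiffness. Among all genes above 0 in both libraries compared, 41.0% were higher and 37.8% lower at 0.5 kPa, and 41.7% and 37.8% at 12 kPa. Past 2-fold these shares were 9.15% higher and 7.91% lower at 0.5 kPa, and 9.55% and 7.61% at 12 kPa. Nes and Prom1 were lower past 2-fold at both stiffnesses, Msi1 was higher at both, and Pax6 was higher at 0.5 kPa only. The median log2 ratio of the 3 members above the minimum was -0.00028 at 0.5 kPa and -0.09 at 12 kPa, where that of all 10489 genes was 0.011 and 0.0098. With Pax6 above and Nes below, this median is the Sox9 ratio alone and does not summarize the set.

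**Figure D3:**
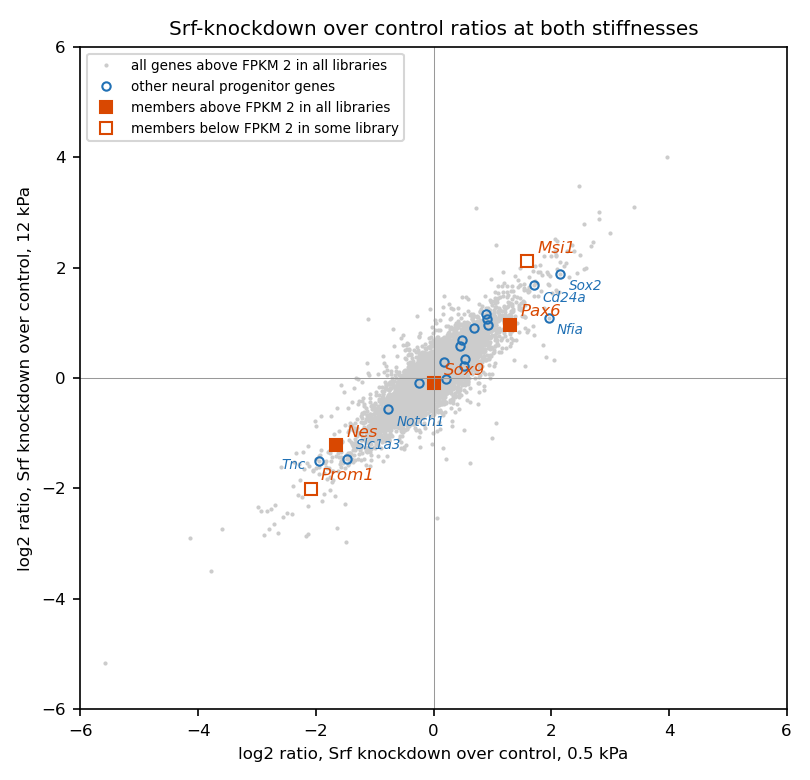
Log2 ratio of shSrf over control at 12 kPa (vertical axis) against that at 0.5 kPa (horizontal axis), which share no library. Grey points are genes above FPKM 2 in all libraries, squares the members (open where below that minimum in some library) and circles other neural progenitor genes. Nes and Prom1 sit in the lower left with Tnc and Slc1a3, Pax6 and Msi1 in the upper right with Sox2, Cd24a and Nfia, and Sox9 near the centre.

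The comparison of 12 with 0.5 kPa asks how matrix stiffness bears on the same genes. In control NPCs, Nes was lower on 12 kPa (log2 ratio -0.52, SE 0.025), while Sox9 (0.31, SE 0.077) and Pax6 (0.40, SE 0.19) were higher. Of the members that miss the minimum in some library, Prom1 (-0.24, SE 0.076) and Msi1 (-0.59, SE 0.28) were lower on 12 kPa. Prom1 misses it in shSrf NPCs on 12 kPa only, and had 8.96 and 7.58 FPKM in the control libraries compared here. With these, 2 of 5 detected members were higher and 3 lower, beside 26.5% and 23.6% of genes above 0. Thus 2 of the 3 members above the minimum were higher and 1 lower past 1.1-fold, beside 17.9% and 16.9% of all genes. The lower bound of the Pax6 interval was 0.03 and the upper bound of the Msi1 interval -0.04, so counting error alone nearly reaches 0 in both.

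In shSrf NPCs, Sox9 was again higher on 12 kPa (log2 ratio 0.22, SE 0.056), while Nes (-0.08, SE 0.029) and Pax6 (0.06, SE 0.091) stayed within 1.1-fold. Of the 3 members above the minimum, 1 was then higher and 0 lower, beside 17.6% and 13.0% of all genes. Msi1 had a log2 ratio of -0.06, Prom1 of -0.16 and Fabp7 of -0.88, each with an interval that spans 0. Of the 6 members above 0 in both shSrf libraries, 1 was higher and 2, Prom1 and Fabp7, were lower past 1.1-fold, beside 27.0% and 20.7% of genes.

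The stiffness ratios in shSrf and in control NPCs share no library and can be subtracted. For Nes the log2 ratio in shSrf NPCs minus that in control NPCs was 0.43, with a counting interval of 0.36 to 0.51. For the other 4 members the interval spans 0. It ran from -0.75 to 0.07 for Pax6, from -0.28 to 0.09 for Sox9, from -0.06 to 1.11 for Msi1 and from -0.18 to 0.34 for Prom1. With 1 library in each condition, whether any of these exceeds the variation between cultures was not tested.

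Sox2, a SoxB1 relative of Sox1 and Sox3 that also marks neural progenitors, was higher in shSrf NPCs. Its FPKM was 4.29 and 5.49 in control NPCs on 0.5 and 12 kPa, and 19.1 and 20.4 in shSrf NPCs, a difference of 4.44-fold at 0.5 kPa and 3.71-fold at 12 kPa. N31 cells also carry Sox2 among the Dox-inducible factors, and the files do not separate reads of the transgene from those of the endogenous gene. Of the other inducible factors, Pou5f1 (Oct4) ranged from 0.861 to 2.26 FPKM, Klf4 from 25.9 to 37.8 and Myc from 33.7 to 71.6. Each had both shSrf libraries above both control libraries, and the share of all genes with this order was not computed. By another measure, 30.3% of the 10489 genes above the minimum were higher past 1.1-fold in both knockdown ratios. Pou5f1 is not among those 10489 genes and rests on few reads. The counting SE of its log2 stiffness ratio in control NPCs was 0.74. The part of the transgenes in the Sox2 values was not tested.

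Among 32 further genes of neural progenitors and radial glia, 17 were above the minimum. In both knockdown ratios, 12 of the 17 were higher and 3 lower past 1.1-fold, beside 30.3% and 28.8% of all 10489 genes. The median log2 ratio of the 17 was 0.51 at 0.5 kPa and 0.58 at 12 kPa. The genes that were lower were Tnc, a matrix protein of the stem cell niche, Slc1a3 (GLAST), a glutamate transporter of radial glia, and the receptor Notch1. The FPKM of Tnc was 92.4 and 74.7 in control against 24 and 26.4 in shSrf NPCs. Slc1a3 had 27.7 and 36.7 against 9.99 and 13.2, and Notch1 18.4 and 20.6 against 10.8 and 14.

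After Sox2, the highest mean ratios in that list were those of Nfia, a factor of gliogenesis, and Cd24a, a surface protein of neuronal precursors. The FPKM of Nfia was 2.43 and 4.35 in control against 9.42 and 9.28 in shSrf NPCs. Cd24a had 3.35 and 3.49 against 10.9 and 11.2. Nr2e1 and the Notch target Hes5 were listed at 0 in all 4 libraries. With stiffness, 6 of the 17 genes were higher and 4 lower in control NPCs, and 4 were higher and 1 lower in shSrf NPCs, beside 17.9% and 16.9% of all genes above the minimum in control and 17.6% and 13.0% in shSrf NPCs.

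Of 20 transcription factors of dorsal and ventral domains, 3 were above the minimum, and 6 were listed at 0 in all libraries (Nkx2-2, Pax7, Gsx1, Neurog1, Neurog2 and Ptf1a). Pax3, a dorsal and neural crest factor, gave a log2 knockdown ratio of 0.55 on 0.5 kPa and 0.57 on 12 kPa, and Foxa2, a floor plate factor, 0.77 and 0.71. Msx1, a factor of the dorsal neural tube, had -0.51 and -0.30.

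Relatives of the members in the same families were also measured. Of 21 such paralogs, 6 were above the minimum, and 5 of them were higher and 1, the intermediate filament Des, lower in both knockdown ratios, beside 30.3% and 28.8% of all genes. Of the 5, Sox2, Msi2 and Vim were already counted among the progenitor genes and Pax3 among the domain factors, so that Fabp5 is the 1 gene added, with 96.0 and 103 FPKM in control against 154 and 142 in shSrf NPCs. Msi2, the relative of Msi1, stood at 11.0 and 9.80 FPKM in the control libraries and at 20.6 in each shSrf library. Vim, an intermediate filament that assembles with nestin, stood at 1696 and 1481 FPKM in the control libraries and 2380 and 2396 in the shSrf libraries, opposite in direction to Nes. The ratio of Nes to Vim within a library was 0.0304 and 0.0243 in control and 0.0069 and 0.0065 in shSrf NPCs.

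Genes whose FPKM ran most like that of a member over the 4 libraries were found by the root mean square difference of log2 FPKM after centring each gene. Nes was nearest to Col18a1, a basement membrane collagen (0.0255), then Stard13 (0.0494) and the cytokine Lif (0.0640), and 5 genes lay within 0.1. Col18a1 stood at 167 and 117 FPKM in the control libraries and at 51.4 and 48.7 in the shSrf libraries. Pax6 was nearest to Enpp5 (0.0508), Adamts1 (0.0608) and 4930524J08Rik (0.0618), with 21 genes within 0.1. Sox9 was nearest to Mid1 (0.0140), Tex9 (0.0149) and Mylip (0.0183), with 405 genes within 0.1. With 4 points each, these are descriptions of profiles only.

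The label of neural progenitor cells was set against markers of other cell types. The summed FPKM of the 9 members was 75.4 and 61.4 in control NPCs and 40.3 and 40.8 in shSrf NPCs. Of 14 mesenchymal markers, 12 were above the minimum, none was at 0, and their sum was 3361 to 3884. Among them, Col3a1 had an FPKM between 1584 and 1908 in the 4 libraries, and Acta2, a smooth muscle actin and Srf target, had 321 and 322 in control and 6.74 and 8.96 in shSrf NPCs. The 32 other neural progenitor genes summed to between 2026 and 3161, of which Vim, an intermediate filament also made by mesenchymal cells, gave 1481 to 2396. Of the 9 genes that give the label, Nes, Sox9, Prom1 and Pax6 had an FPKM above 1 in all 4.

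**Figure D4:**
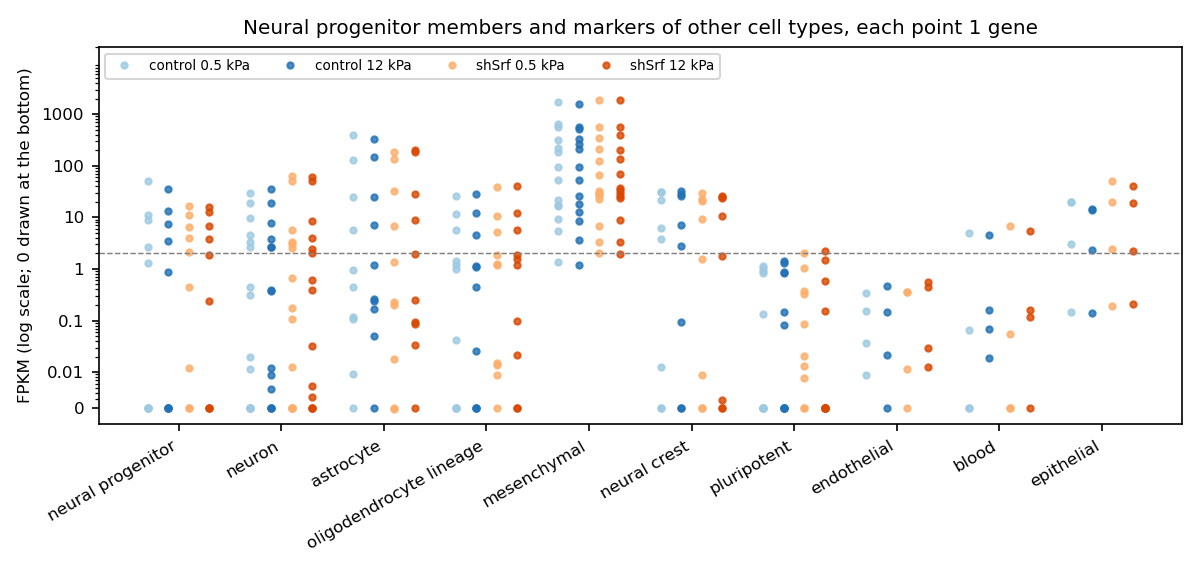
FPKM (vertical axis, log scale with 0 drawn at the bottom) of the 9 members and of markers of other cell types, each point 1 gene in 1 of the 4 libraries. The dashed line is FPKM 2. The upper mesenchymal markers reach above the members in each library, and endothelial markers lie below the line.

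Of 14 neuronal markers, 6 were above the minimum, Rbfox3, Elavl4 and Neurod1 were at 0 in all libraries, and the sum was 69.8 and 71.2 in control against 132 and 129 in shSrf NPCs. Stmn2 accounted for most of that difference, with an FPKM of 19.1 and 18.7 against 64.6 and 61.3, followed by Map2. Of the 6 genes, 2 were higher and 2 lower in shSrf NPCs past 1.1-fold at 0.5 kPa, with a median log2 ratio of -0.03, and 3 were higher and 2 lower at 12 kPa, with a median of 0.32. Of 10 astrocyte markers, 4 were above the minimum and Gjb6 was at 0, with sums of 515 to 557 in control and 361 to 425 in shSrf NPCs. Of the 4, 2 (Aldoc and Aldh1l1) were higher and 1 lower in both knockdown ratios, beside 30.3% and 28.8% of all genes. The lower gene, Gja1, had an FPKM of 397 and 334 in control against 187 and 199 in shSrf NPCs. Of 10 oligodendrocyte lineage markers, 3 were above the minimum and Nkx2-2 was at 0 (sums 46.3 and 48.2 against 58.4 and 63.4). Of 8 neural crest markers, 4 were above the minimum and Foxd3 was at 0 (93.6 and 96.8 against 83.3 and 85.9).

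Of 4 epithelial markers, 3 were above the minimum, with sums of 43.3 and 30.5 in control and 73.7 and 62.2 in shSrf NPCs, but Krt8 alone, with an FPKM of 20 and 13.7 against 51.2 and 41.0, made up most of that difference. Krt18 and Epcam had log2 knockdown ratios of -0.02 and -0.31 at 0.5 kPa, and 0.39 and -0.05 at 12 kPa. Of 10 pluripotency markers none was above the minimum in all libraries, Dppa3 and Dppa5a were at 0, and the sums were 3.91 to 4.64. The 4 endothelial markers summed to 0.542 to 1.06 and the 4 blood markers to 4.89 to 6.72, with 0 and 1 of them above the minimum. The neuronal, epithelial, oligodendrocyte lineage, endothelial and blood sums were thus higher in both shSrf libraries than in both control libraries. The astrocyte, mesenchymal and neural crest sums were lower. These sums follow a few abundant genes and do not give the direction of most markers. Of the 12 mesenchymal markers above the minimum, 5 were higher and 3 lower in both knockdown ratios past 1.1-fold, beside 30.3% and 28.8% of all genes. Acta2, Postn and Col1a2 gave the largest falls. Cnp led the oligodendrocyte lineage sum and Cd68 the blood sum. The part of these sums in the member ratios was not tested.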

How the data were processed

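mRNA of 4 libraries (TruSeq Stranded mRNA, single-end NextSeq reads) was used. The authors mapped reads to mm10 with GENCODE M14, kept high mapping quality and deposited FPKM, which the study's methods call RPKM. The submitters' processing notes name cutadapt 1.9.1, TopHat2 2.1.0, Bowtie2 2.2.8 and Cufflinks 2.2.1. Groups followed the labels. Of 21997 rows per library, 135 rows of 63 repeated symbols were left out. Log2 ratios were taken on the deposited FPKM without pseudocount or rescaling, for the 4 comparisons of stiffness and knockdown. Stiffness and knockdown comparisons share libraries.

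Depth was estimated from single-read steps in genes of 1 transcript and an FPKM below 0.1, and reads of a gene from GENCODE M1 lengths matched by symbol. The counting error used the fewer of the reads given by the longest and the median transcript. In simulated data for shSrf over control at 0.5 kPa (19269 genes), 200 of 200 genes changed 2-fold were found past 1.1-fold. The changed genes were drawn from well-expressed ones, with a mean FPKM above that of every member but Nes. The simulated noise was counting error only. This checks the arithmetic and says nothing of how well changes in weakly expressed members are found. The members, lists and tests were chosen with earlier results of these data known. The rule for naming genes took all members, Sox2, Srf, Acta2, and the 3 largest mean falls and rises past 1.1-fold in both knockdown ratios per list. It also took the leading markers of other cell types and the 3 nearest profiles per member above the minimum. The marker lists are given mostly as sums, so many genes that this rule selects are not printed. Klf4, Myc, Hes5, Nr2e1, Stmn2, Krt8, Col3a1, Fabp5 and the list genes with opposite stiffness ratios are also given, some after their values were seen. Alternatives were other minima, thresholds, a pseudocount of 1, median centring, upper-quartile scaling and centring in 50 bins of GC content. Calculations used pandas 2.3.3, scipy 1.17.1, numpy 2.4.6 and matplotlib 3.10.9 under Python 3.11.15.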

Additional observations from a re-analysis of the deposited data

Results flagged for a closer look

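No member had stiffness ratios (12 over 0.5 kPa) past 1.1-fold in opposite directions in control and in shSrf NPCs. Of 147 members and other genes of the lists, 11 did, each lower on 12 kPa in control and higher in shSrf NPCs. With 1 library in each condition the difference was not tested. Among all genes above the minimum, 16.9% were lower on 12 kPa in control and 17.6% higher in shSrf NPCs past 1.1-fold. The share with both was not computed, so the 11 genes cannot be set against a background. Above the minimum FPKM there were 4 of them. Nefl, a neurofilament, had a log2 stiffness ratio of -0.32 in control and 0.54 in shSrf NPCs, a difference of 0.86 (counting SE of the 2 ratios 0.077 and 0.061). For Cspg4, a proteoglycan of oligodendrocyte precursors and pericytes, the ratios were -0.32 and 0.15, a difference of 0.47. For the intermediate filament Des they were -0.35 and 0.19, a difference of 0.54. For the neuronal tubulin Tubb3 they were -0.34 (SE 0.18) and 0.21 (SE 0.12), a difference of 0.55.

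The other 7 were below the minimum in at least 1 library and rest on fewer reads. The difference was 0.63 for Ngfr, 0.99 for Zbtb20, 1.12 for Irx3 and 1.17 for Sox8. It was 0.72 for Fabp3, 3.54 for Mag and 0.58 for Pou5f1, which is also carried as an inducible transgene. In control NPCs the counting SE of the ratio was 1.32 for Fabp3, 1.53 for Mag and 0.74 for Pou5f1, larger than the ratio itself.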

How the results depend on the processing

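No paired analysis was possible because every condition was sequenced as 1 library, and for the same reason no replicate could be left out. Of 84 log2 ratios of single members recomputed under 4 scaling or pseudocount alternatives, 77 moved by less than the 95% counting error, 7 moved by more and 0 reversed. With a pseudocount of 1, the knockdown ratios were 1.1 and 1.35 for Msi1, -1.68 and -1.57 for Prom1 and -1.59 for Nes at 0.5 kPa, and with GC centring those of Nes were -1.74 and -1.37. The difference of the stiffness ratios kept its sign for all 5 members, and ranged over the alternatives from 0.38 to 0.43 for Nes and from 0.25 to 0.52 for Msi1. With a pseudocount of 1 the stiffness ratio of Fabp7 in shSrf NPCs was -0.22. The counts of members past the threshold depend on which are admitted. With a minimum of 5, which leaves out Pax6, 0 of the 2 members tested were higher in either knockdown ratio and 1 in the control stiffness ratio. With a minimum of 1, which admits Prom1, 2 of 4 were lower in each knockdown ratio, 2 in the control and 1 in the shSrf stiffness ratio. With FPKM 2 required of the compared pair alone, 2 of 4 were lower at 0.5 kPa knockdown and 2 of 4 in the control stiffness ratio. With no minimum, 2 of 5 were higher and 2 lower in each knockdown ratio. In the stiffness ratios 3 of 5 were then lower in control and 2 of 6 in shSrf NPCs. At 1.2-fold, 0 of 3 were higher in the shSrf stiffness ratio. At 1.5-fold and 2-fold, 0 of 3 were higher or lower in the control and 0 higher in the shSrf stiffness ratio. At 2-fold 0 of 3 were higher in the 12 kPa knockdown ratio. Shares of all genes without a minimum are given above, and those at the other settings were not computed. These counts show only how the calls depend on the settings. With the median in place of the longest transcript, the lowest estimated reads were 41.4 for Msi1, 111 for Pax6 and 686 for Sox9. Values of Fabp7 and Sox3 rest on few reads.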
